A study of Nasonia vitripennis with 76 samples.

Results

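The abdomens of triploid (3N) females of generation F14 were compared with those of diploid (2N) females of the same generation in *Nasonia vitripennis*, a small parasitoid wasp. The libraries were chosen by their labels alone, and 10 of the series' 76 libraries belong here, 5 of 3N females (A56 to A60) and 5 of 2N females (A66 to A70). All females were of the TRA strain, a neo-polyploid line that traces back to a knockdown of *transformer*, so the 2N females are not an unmanipulated control and carry the line's history too. They were sampled 1 day after emergence. RNA was extracted without DNase, and polyadenylated RNA was sequenced. The labels give neither the number of wasps in a library nor the rearing it came from. The p-values given here therefore measure the spread among these libraries, which may be technical. Female abdomens of generation F2 (3 libraries at 2N, 5 at 3N) entered the same statistical fit and served to compare the ploidy difference between generations.

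*Nasonia* is haplodiploid: unfertilized eggs usually develop into haploid males and fertilized eggs into diploid females, and the gene *transformer* directs the female pathway. The abdomen of an adult female holds the ovaries, in which nurse cells load the growing oocyte with maternal RNA, together with the venom apparatus, gut, fat body, muscle and nerve cord. Oogenesis calls on genes of the cell cycle, meiotic recombination, DNA repair and germ line specification. Such genes were examined with the ovary in view, although they are not confined to it. In bulk RNA of a whole abdomen, fewer cells of a type and less RNA per cell cannot be told apart, and every level is relative to its library, which hides any difference between ploidies in how much RNA an abdomen makes.

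The 10 libraries held 23.12 to 29.43 M counts each (14.21 to 60.12 M over all 76), and the mean totals of the ploidies differed by -0.828 M (3N minus 2N, two-sided exact permutation test, p = 0.524, n = 5 and 5). Libraries did not separate cleanly by ploidy. In a principal component analysis of log2 CPM (counts scaled to a common library size) the first component took 54.47% of the variance. On it, 4 of the 3N libraries lay between 17.1 and 93.5 and 4 of the 2N libraries between -66.5 and -30.7. A57, labelled 3N, lay at -44.0 among the 2N libraries, and A67, labelled 2N, lay at 23.8 among the 3N ones. The mean correlation of A57 with the other 3N libraries was 0.9255, below its 0.9464 with the 2N libraries. For A67 the corresponding values were 0.9609 with its own group and 0.9677 with the other, and for A58 they were 0.9594 and 0.9621. Whether A57 or A67 carries a wrong label cannot be told from the labels, and both were kept as labelled. Results are given with all libraries first and then without A57. Since A57 stands apart by its expression profile, leaving it out separates the ploidies further by construction, and the counts without it are not independent of that choice.

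**Figure D1:**
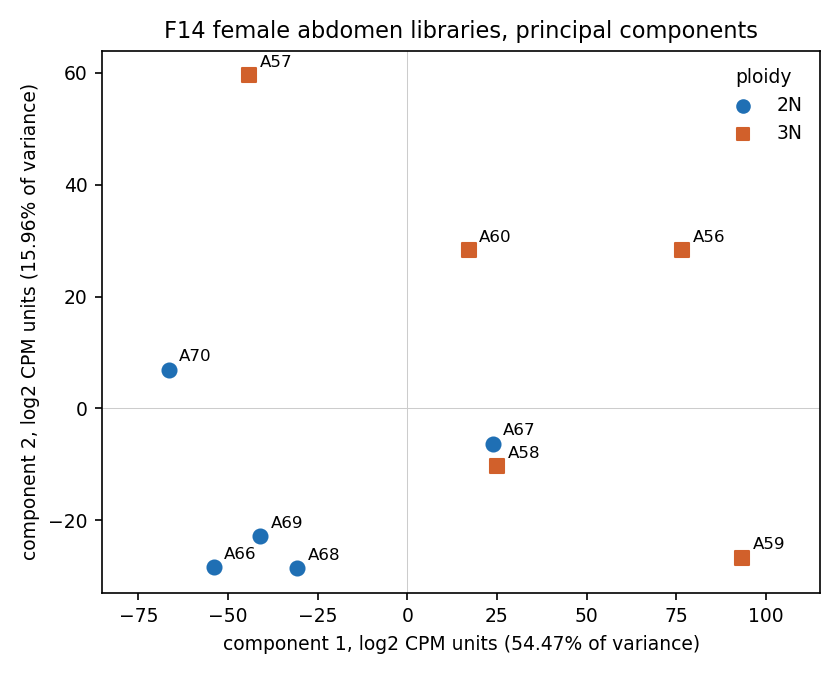
Principal components of log2 CPM in the 10 F14 female abdomen libraries, component 1 on the x axis and component 2 on the y axis, circles for 2N and squares for 3N. A57 (3N) lies at -44.0 on component 1 with most 2N libraries, and A67 (2N) lies at 23.8 beside A58 (3N).

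With all 10 libraries, 6 genes were lower and 0 were higher in 3N than in 2N abdomens at an adjusted p below 0.05 (edgeR's quasi-likelihood test with Benjamini-Hochberg adjustment, 10855 genes tested). These are 0.0553% and 0% of the genes tested. At an unadjusted p below 0.05 the same fit held 1588 higher and 1198 lower genes, and DESeq2 called 130 higher and 483 lower. All 6 genes carry only LOC identifiers without an assigned name, and all 6 were also called without A57. In each of them every 3N library lay below every 2N library. The 6 were called on these same libraries, so neither this gap nor the call without A57 is a separate result. The share of all genes tested with such a gap is not given here.

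*LOC103316656* had the smallest standard error of the 6. Its level was 75.4, 29.7, 78.7, 67.7 and 66.7 CPM in the 2N libraries A66 to A70 and 16.4, 20.9, 23.1, 22.2 and 16.6 CPM in the 3N libraries A56 to A60. A67 stood well below the other 2N libraries and still above every 3N library. Its log2 difference was -1.68 ± 0.27 (3N minus 2N, ± standard error here and for the other log2 differences, adjusted p = 0.046, range over the alternatives 1.49e-06 to 0.157).

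*LOC100119490* showed the largest fall of the 6. It stood at 112, 11.5, 87, 72.1 and 182 CPM in the 2N libraries and at 5.36, 6.91, 5.50, 4.01 and 5.16 CPM in the 3N libraries. The 3N libraries were tightly grouped, and A67 again lay nearest to them. Its log2 difference was -4.10 ± 0.71 (adjusted p = 0.046, range over the alternatives 8.76e-08 to 0.181). It belongs to the male abdomen genes, a list defined with the tissue comparisons. Scaled over all 76 libraries its mean was 1760 CPM in F3 1N male abdomens and 4500 CPM in F15 1N male abdomens, against 86.9 CPM in F14 2N female abdomens and 0.073 CPM in their heads.

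*LOC100678174*, also a gene of the male abdomen list, stood at 102, 46.4, 71.9, 81.5 and 61.1 CPM at 2N and at 14.5, 30.3, 33.6, 18.4 and 20 CPM at 3N (log2 difference -1.64 ± 0.28, adjusted p = 0.046). *LOC100123932* stood at 23, 5.89, 24.7, 9.37 and 21.7 CPM at 2N and at 1.11, 3.17, 1.31, 2.40 and 3.73 CPM at 3N (log2 difference -2.85 ± 0.48, adjusted p = 0.046). Both kept a gap between the groups, which for *LOC100123932* lay between A67 and A60. The other 2 genes were of low level and were named after their values were seen. *LOC100117216* ranged from 1.88 to 3.88 CPM at 2N and from 0.159 to 0.697 CPM at 3N (-3.03 ± 0.51), and *LOC103317638* from 0.299 to 2.76 CPM and from 0.0397 to 0.205 CPM (-3.77 ± 0.65). A67 was the lowest 2N library in all 6 genes.

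**Figure D2:**
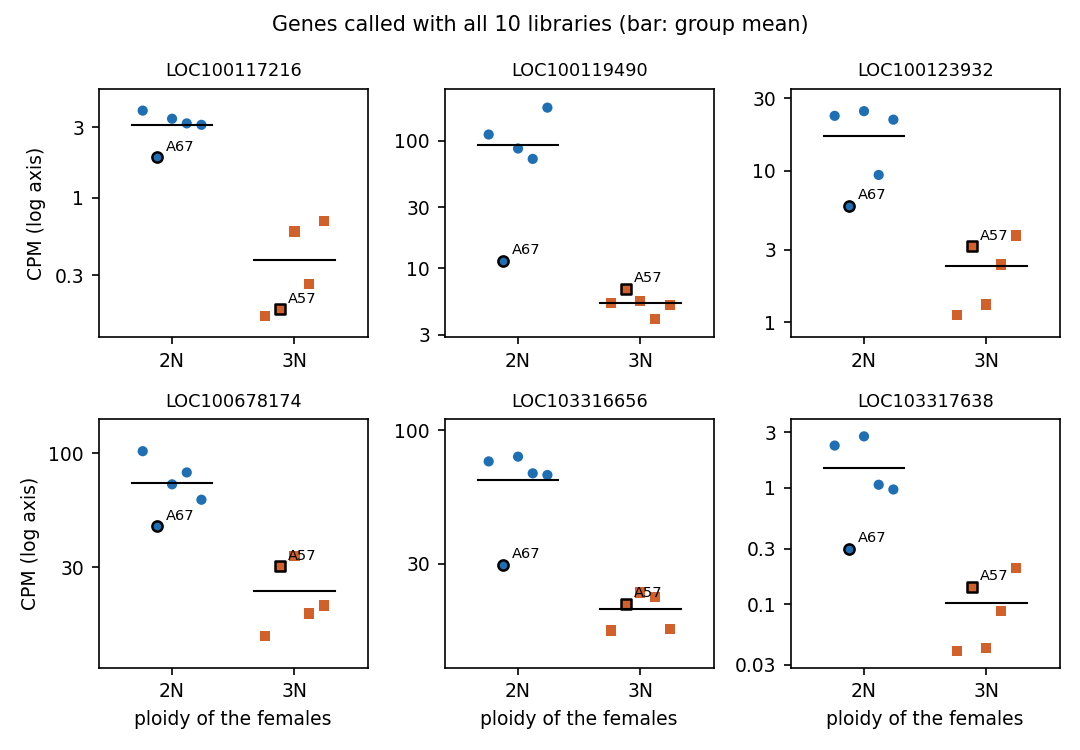
Level of the 6 genes called lower at 3N with all libraries, in CPM on a log axis, by ploidy, 1 point per library (circles 2N, squares 3N; bar, arithmetic group mean; A57 and A67 outlined). In every panel the 3N libraries lie below the 2N libraries, and A67 is the lowest of the 2N libraries. The genes were chosen by the test on these same libraries.

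Levels in the other tissues of the line differed among the 6 genes. *LOC103316656* and *LOC100123932* were at their highest in abdomens of F15 males, with means of 1540 and 948 CPM at 1N and 1530 and 1630 CPM at 2N (scaled over all 76 libraries). In F3 male abdomens they had 120 and 5.81 CPM at 1N and 173 and 587 CPM at 2N. *LOC100117216* was higher in the heads than in the abdomens of F14 females, with 13.9 and 2.93 CPM at 2N and 9.92 and 0.343 CPM at 3N. These group means are given as a description.

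The number of genes called depended on single libraries. Leaving out A57 gave 1648 genes higher and 1068 lower at 3N, 15.3% and 9.90% of 10787 tested and 25.2% together. Leaving out A67 gave 442 higher and 404 lower, 4.07% and 3.72% of 10849 tested. Leaving out A58 left 3 lower genes, and leaving out any of A56, A59, A60, A66, A68, A69 or A70 left 0 (edgeR, between 1590 and 2569 genes at an unadjusted p below 0.05). Without A57 the split of higher against lower calls also depended on the scaling: it was 1347 higher and 1136 lower with RLE size factors, 1675 and 1749 with DESeq2, and 827 and 925 in a fit of the F14 libraries alone. All 2716 genes called without A57 had the same sign of difference with all libraries. These fits share every library but A57, so the shared sign is nearly given by the overlap and is no separate result.

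**Figure D3:**
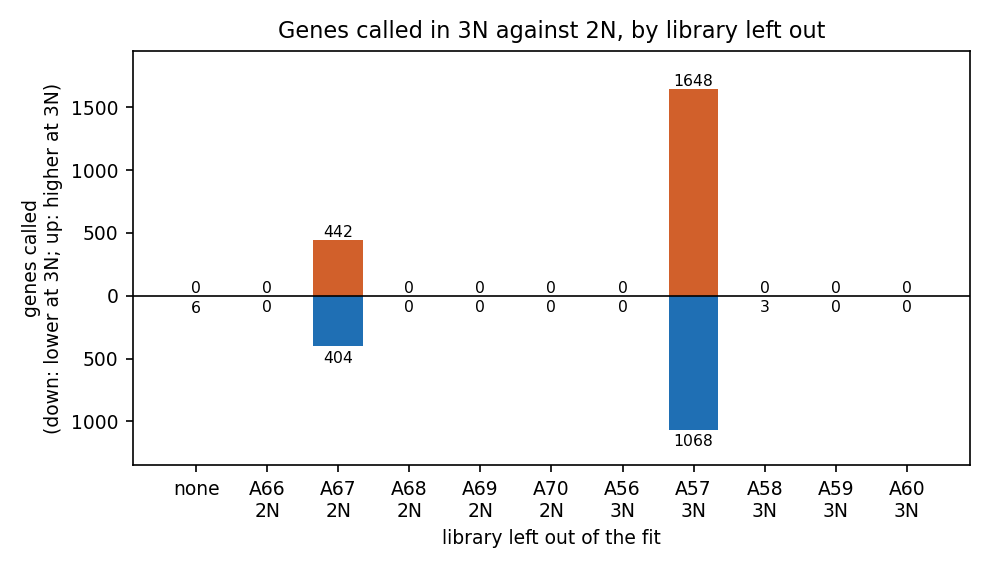
Genes called higher (upward bars) and lower (downward bars) at 3N with all libraries (none) and with each of the 10 libraries left out in turn; the y axis counts genes. Calls reach 1648 and 1068 without A57 and 442 and 404 without A67, and at most 6 otherwise.

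The genes called higher without A57 moved little, and those called lower moved much. The median log2 difference was 0.48 for the higher and -1.70 for the lower calls, and 21 higher calls against 852 lower calls were at least 2-fold. The higher calls were of more abundant genes, with a median of 65.8 CPM in 2N abdomens, against 13.3 CPM for the lower calls and 32.2 CPM for all genes tested. The 6 largest rises with at least 5 CPM and no overlap between groups were of *LOC100119603*, *LOC107980447*, *LOC100122137*, *LOC100120926*, *LOC100119794* and *LOC100680265*. *LOC107980447* stood at 26.6, 52.4, 41.3, 33.3 and 25.6 CPM at 2N and at 92.5, 16.3, 63.2, 91.0 and 72.1 CPM at 3N. A57, at 16.3 CPM, was the lowest of all 10 libraries, while the other 3N libraries all lay above the 2N ones. It differed by a log2 of 0.90 ± 0.33 with all libraries (adjusted p = 0.137) and 1.15 ± 0.20 without A57 (adjusted p = 0.0143, edgeR; range over the alternatives 5.03e-05 to 0.336). *LOC100119794* showed the same order, with 102 to 140 CPM at 2N, 172 to 300 CPM in 4 of the 3N libraries and 15.2 CPM in A57.

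Of the genes typical of the female abdomen, which holds the ovary, 387 of 730 were called higher at 3N without A57. The list was drawn from libraries outside the comparison: 730 genes with a median of at least 5 CPM in F2 2N female abdomens and at least 8-fold above both F2 2N female heads and F3 1N male abdomens. No member was called with all libraries, and 12 were called lower without A57. Without A67 the counts were 100 higher and 8 lower, where 4.07% and 3.72% of all genes tested were. The median log2 difference of the list was 0.37 with all libraries and 0.49 without A57, against 0.07 and 0.04 over all genes tested. Members made up 23.5% of the genes called higher, against 6.77% of the genes tested. The summed level of the list was 115500, 135200, 128400, 115000 and 107000 CPM in A66 to A70 and 155300, 95480, 139700, 180200 and 142700 CPM in A56 to A60. A57 held the lowest sum of all 10 and A67 the highest of the 2N libraries. A female abdomen holds more than ovaries, so the list is not one of the ovary alone.

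The germ line genes themselves were not called, with or without A57. *oskar*, which assembles germ plasm at the posterior pole of the egg, was the most abundant of the 3 per transcript length, with means of 636 TPM (transcripts scaled to length and library size) at 2N and 761 TPM at 3N. Its level was 432, 706, 524, 504 and 534 CPM at 2N and 715, 698, 612, 589 and 691 CPM at 3N. The 3N libraries, A57 included, all lay above the 2N libraries except A67. It differed on the log2 scale by 0.29 ± 0.12 (adjusted p = 0.166) with all libraries, by 0.27 ± 0.13 (adjusted p = 0.118) without A57, and 0.41 without A67 (adjusted p = 0.0405, the only alternative of 18 under which it was called). *nanos*, a translational repressor needed for germ cells and the posterior pattern, was held within 81.7 to 87 CPM at 2N and spread from 44.1 to 108 CPM at 3N, A57 being the lowest. Its log2 difference was 0.01 ± 0.17 (adjusted p = 0.985) with all libraries and 0.17 ± 0.10 (adjusted p = 0.222) without A57. *Egl*, whose product links localized mRNAs to the dynein motor in *Drosophila*, differed by 0.23 ± 0.14 (adjusted p = 0.289) and 0.33 ± 0.13 without A57 (adjusted p = 0.0698). Of the 7 egg and embryo patterning genes, *Eve*, *Gt*, *Kr* and *Hb* among them, 0 were called in either fit at a median of 0.09 and 0.30.

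Cell cycle genes were called without A57 for 7 of 15 members, all higher (15.3% of all genes tested were), and for 0 of 15 with all libraries; their median log2 difference was 0.46 and 0.31 in these fits. Without A67, 1 of 15 members was called higher, near the 4.07% of all genes tested in that fit. *cycB*, the mitotic cyclin B, stood at 577, 741, 703, 486 and 642 CPM in A66 to A70 and at 1170, 305, 784, 1590 and 1250 CPM in A56 to A60. The 3N libraries other than A57 all exceeded the 2N libraries, A58 only by a little, and A57 was the lowest of the 10. The log2 difference was 0.70 ± 0.31 (adjusted p = 0.181) and 0.93 ± 0.22 without A57 (adjusted p = 0.0155, range over the alternatives 0.00133 to 0.366).

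*Cdk1*, the kinase that cyclin B activates, had 123, 210, 155, 130 and 167 CPM at 2N and 271, 94.6, 188, 304 and 292 CPM at 3N. Here A67 exceeded A58, so that the groups overlapped even without A57. The difference was 0.75 ± 0.19 without A57 (adjusted p = 0.0169). *fzy*, an activator of the anaphase-promoting complex (0.89 ± 0.21), *Bora*, an activator of the mitotic kinase Aurora A (0.88 ± 0.24), the centromeric histone *Cenp-a* (0.63 ± 0.19), the cohesin subunit *Smc3* (0.55 ± 0.15) and the kinase *Melk* (0.46 ± 0.12) were the other calls without A57. The cyclin-dependent kinases *Cdk2* and *Cdk4* were not called (0.37 and 0.49 without A57, adjusted p = 0.153 and 0.0779), nor was *E2f8* (-0.69, adjusted p = 0.108), the only member with a negative difference.

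DNA repair and recombination genes were called higher without A57 for 9 of 15 tested members and lower for 0, against 15.3% and 9.90% of all genes tested, and none was called with all libraries (medians 0.45 and 0.32). Without A67, 2 were called higher, where 4.07% of all genes tested were. *Hop2*, which pairs homologous chromosomes in meiosis, stood at 12.1, 20.8, 12.7, 13.4 and 18.5 CPM at 2N and at 30, 10.8, 23.2, 29.3 and 30.4 CPM at 3N. A57 was the lowest of the 10, and the other 3N libraries lay above all 2N libraries. The difference was 0.67 ± 0.24 (adjusted p = 0.133) and 0.86 ± 0.18 without A57 (adjusted p = 0.0147, range over the alternatives 0.000327 to 0.324). *Rad54l*, a motor protein of homologous recombination, the helicase gene *recQ1*, the single-strand binding subunit *RPA2*, the excision nuclease *Mus201* and the translesion polymerases *Pol-iota* and *Polh* were called as well, by 0.32 to 0.55 on the log2 scale. *recQ1* and *RPA2* were the called members in which A57 lay with the other 3N libraries: *RPA2* had 74.6 to 104 CPM at 2N and 111 CPM in A57, with 101 to 141 CPM in the other 3N libraries.

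Chromatin genes were called higher without A57 for 3 of 7 members, and for 0 with all libraries or without A67. *Dnmt1a*, a maintenance DNA methyltransferase, was held within 125 to 138 CPM at 2N and stood at 202, 162, 216 and 165 CPM in A56, A58, A59 and A60 but 108 CPM in A57 (0.48 ± 0.10 without A57, adjusted p = 0.0147). The Polycomb group gene *Scm* (0.48 ± 0.10) and the histone deacetylase *Rpd3* (0.49 ± 0.11) were the other 2. Of the dynein and dynactin genes 1 of 11 was called higher, the dynactin subunit *Dctn4* (0.34 ± 0.11, adjusted p = 0.0339), and of the RNA processing genes 2 of 13, *Thoc4* and *Wdr33*. These last 2 shares lie near the 15.3% of all genes called higher, and neither list had a call with all libraries. Without A67 the counts were 1 and 0, where 4.07% of all genes tested were called higher. Lists of these sizes were described by counts and were not tested as lists.

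**Figure D4:**
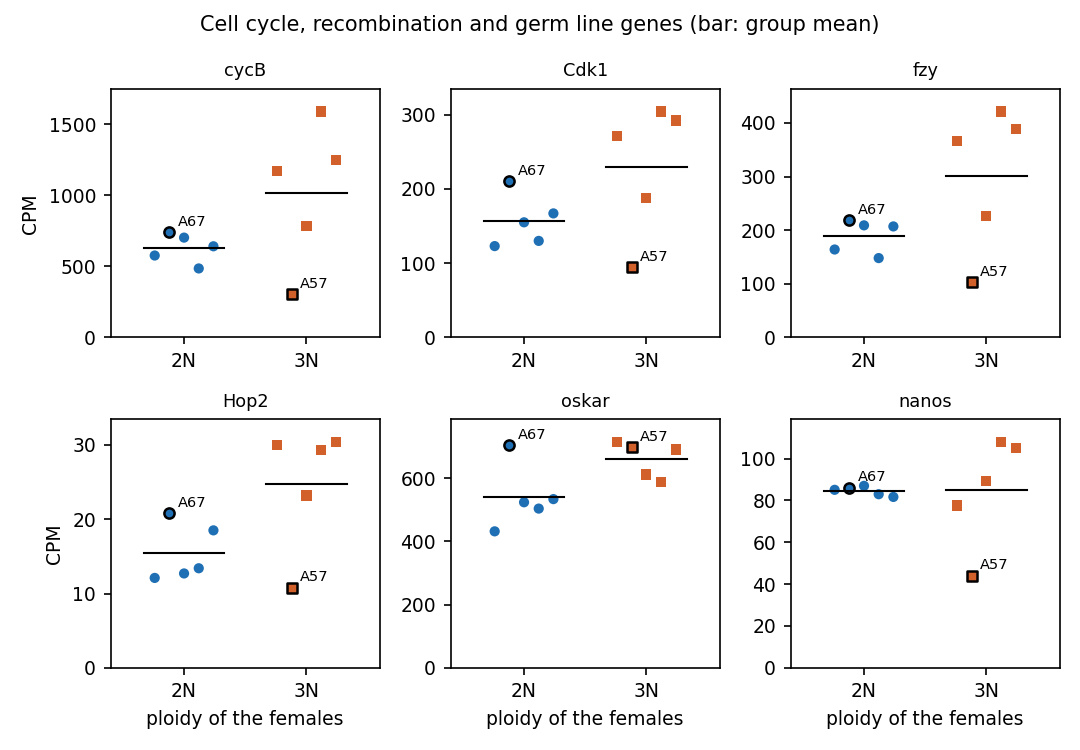
Level in CPM (linear axis from 0) of the cell cycle genes cycB, Cdk1 and fzy, of the recombination gene Hop2 and of the germ line genes oskar and nanos, 1 point per library by ploidy (circles 2N, squares 3N; bar, group mean; A57 and A67 outlined). A57 is the lowest 3N library in all panels but that of oskar, where it stands at 698 CPM.

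Genes typical of male abdomens and of heads were often called lower at 3N without A57. Both lists were drawn by the same 8-fold rule, the first from F3 1N male abdomens and the second from heads of F2 2N females and F3 1N males. Of the 481 male abdomen genes tested, 2 were called lower with all libraries, and 120 of 475 were called lower and 3 higher without A57. Their median log2 difference was -0.92 with all libraries and -1.28 without A57. Of the 508 head genes 0 were called with all libraries, and 173 of 505 were called lower and 4 higher without A57 (medians -0.90 and -1.26). Without A67, 49 of 481 male abdomen genes and 74 of 508 head genes were called lower, and 1 of each list higher. Over all genes tested in that fit, 3.72% were called lower and 4.07% higher. These lists made up 11.2% and 16.2% of the genes called lower without A57, against shares of 4.4% and 4.68% among the genes tested. The 4-fold and 16-fold definitions of the lists gave medians of -0.83 to -0.96 for male abdomen genes and -0.77 to -0.98 for head genes with all libraries.

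The summed level of the male abdomen list was 14340, 4085, 10200, 9395 and 19350 CPM at 2N and 3304, 11710, 4569, 1964 and 6982 CPM at 3N. The groups overlapped, A67 being the lowest at 2N and A57 the highest at 3N. The head list summed to 6354, 3754, 5686, 6686 and 6103 CPM at 2N and 2915, 5346, 3961, 3254 and 4183 CPM at 3N, with the same libraries at the overlap. The part that the share of each tissue in a library plays in single-gene differences was not tested. Defining markers of the eye and of clock neurons, the opsin *Lop1* and the peptide *Pdf*, were at or near 0 in all 10 libraries (at most 0.128 and 0.169 CPM). *Or1*, an odorant receptor gene of the antenna, reached 5.78 CPM in A69 and 7.44 CPM in A58 and at most 0.61 CPM in the others.

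Fewer genes had a count in 3N abdomens, and this difference did not depend on A57. Between 12003 and 12398 genes had a count in the 2N libraries and between 11423 and 11885 in the 3N libraries, A57 holding the 11885. The groups did not overlap, and the means differed by -583 (two-sided exact permutation test, p = 0.00794, the smallest it can give, n = 5 and 5). At an equal depth of 23 M counts the difference was -558 (exact permutation p = 0.00794). Counting only genes with at least 10 counts, it was -371 (exact permutation p = 0.119). By that count A57 held 10662 genes, the most of the 3N libraries and within the 10140 to 10749 of the 2N libraries. The 3N library with the fewest, A59, held 9666. The difference with at least 10 counts was not tested without A57. Of the 772 male abdomen genes 592 to 620 had a count at 2N and 523 to 582 at 3N, and of the 571 head genes 547 to 555 and 500 to 535. Between 728 and 730 of the 730 female abdomen genes were detected in each library. That is nearly fixed by the definition, which asks for at least 5 CPM in F2 2N female abdomens. The other 2 lists were chosen for lower levels there, so the lists cannot be compared in this. At F2 the means differed the other way, by 326 genes with a count, 333 at equal depth and 581 with at least 10 counts (exact permutation p = 0.161, 0.0536 and 0.0357, smallest possible 0.0179, n = 3 and 5). The F2 2N library A28 stood apart, with 11020 genes with a count. A26 and A27 had 11967 and 12008, within the 11910 to 12030 of the F2 3N libraries. With at least 10 counts, A28 had 8703 genes, A26 and A27 had 10118 and 10067, and the F2 3N libraries 10069 to 10265. The F2 difference was not tested without A28.

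Members of several named gene families were called lower at 3N without A57, and none of these families had a call with all libraries. In families of similar copies the estimated counts share out ambiguous reads, so values of neighbouring members may depend on each other. Of 5 immunity genes tested, 2 were called lower and 0 higher without A57, where 9.90% and 15.3% of all genes tested were. Without A67, 1 of 5 was called lower, where 3.72% of all genes tested were. The 2 calls without A57 were the antimicrobial defensins *Def1-1* and *Def1-2*, which lie next to each other. *Gnbp1-2*, *Imd* and *ppo1* were not called. *Def1-2* stood at 98.9, 18.8, 48.9, 101 and 228 CPM at 2N and at 1.47, 23.1, 4.73, 5.10 and 10.6 CPM at 3N. A57, at 23.1 CPM, exceeded A67, and otherwise the groups were apart. The log2 difference was -3.46 ± 0.78 (adjusted p = 0.0915) with all libraries and -4.18 ± 0.83 without A57 (adjusted p = 0.0147, range over the alternatives 9.39e-06 to 0.249).

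Genes related to the royal jelly proteins of the honeybee and to *yellow*, a pigmentation gene family of insects, had the lowest median of all lists, -1.86 with all libraries and -2.26 without A57. Of these genes 9 of 14 were called lower without A57, where 9.90% of all genes tested were. Without A67 the count was 6 of 15, where 3.72% of all genes tested were. *Y-g2b* is named for the yellow-g genes, which in *Drosophila* serve the eggshell, and it belongs to the female abdomen list. It stood at 15.2, 24.7, 45.6, 17 and 39 CPM at 2N and at 2.54, 0, 1.14, 2.62 and 1.72 CPM at 3N. Every 3N library lay below every 2N library, A57 at 0. The log2 difference was -4.14 ± 0.95 (adjusted p = 0.0917) and -3.82 ± 0.85 without A57 (adjusted p = 0.0151, range over the alternatives 1.45e-05 to 0.249). On chromosome 3, 8 members of the list lie within 10 consecutive genes. Of these, *Y-h*, *Mrjpl5*, *Mrjpl2*, *Y-e3* and *Y-g2b* were called lower without A57 (-2.12 to -3.82), while *Mrjpl3* (0.21 ± 0.12, adjusted p = 0.18), *Mrjpl4* (-0.08 ± 0.46, adjusted p = 0.906) and *Y-e* (0.32 ± 0.53, adjusted p = 0.657) were not. *Mrjpl2* had 4.36 to 6.65 CPM at 2N and 0.564 to 1.83 CPM at 3N, with A57 the lowest.

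Serine protease genes were called lower for 8 of 38 members without A57 and higher for 2, where 9.90% and 15.3% of all genes tested were. Without A67 the count was 4 lower of 39, where 3.72% of all genes tested were called lower and 4.07% higher. *SP49* stood at 74.9, 5.16, 67.4, 12.9 and 35.5 CPM at 2N and at 2.27, 2.22, 2.62, 0.741 and 0.738 CPM at 3N (-4.50 ± 0.99, adjusted p = 0.0858; -4.62 ± 1.14 without A57, adjusted p = 0.0171). The groups did not overlap, and A57 lay within the 3N libraries. Of 68 genes for cytochrome P450s, carboxylesterases and glutathione S-transferases, enzymes that process toxins, lipids and hormones, 17 were called lower and 2 higher without A57, and 4 lower and 1 higher without A67. *CYP9AG4* had 41.9 to 304 CPM at 2N, 16.7 to 70.1 CPM in 4 of the 3N libraries and 86.4 CPM in A57 (-2.29 ± 0.60 without A57, adjusted p = 0.0201). *CYP314A1*, whose *Drosophila* counterpart makes the active molting hormone, differed by less and more evenly: 98.8 to 157 CPM at 2N against 78.7 to 96.8 CPM at 3N, with no overlap (-0.51 ± 0.13, adjusted p = 0.114; -0.47 ± 0.14 without A57, adjusted p = 0.0258).

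Of 21 neuronal receptors, channels and peptides 6 were called lower without A57 (9.90% of all genes tested were) and 3 without A67 (3.72% were). Those without A57 included the glutamate-gated chloride channel *GluCl* (-3.98 ± 0.80) and the acetylcholine receptor subunits *nAChRb1* (-3.57 ± 0.98) and *nAChRa2* (-2.62 ± 0.72). These were rare transcripts, at 0.256 to 3.40 CPM at 2N and at most 0.67 CPM at 3N, and the sodium channel *Para* and the synaptic gene *Syt1*, at higher levels, were not called (adjusted p = 0.359 and 0.0857). Of 23 cuticle genes 3 were called lower without A57, *CPR16*, *CPR35* and *CPR49*, a share near the 9.90% of all genes, and 0 of 25 without A67. *CPR16* had 79.9 to 265 CPM at 2N and 184 CPM in A57, against 18.9 to 80.9 CPM in the other 3N libraries (-1.76 ± 0.51, adjusted p = 0.0266).

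Other lists showed few calls or none. Translation (11 genes), muscle (3) and storage protein genes (3) had 0 calls with medians between -0.36 and 0.00. The 61 genes of oxidative phosphorylation had 0 calls, and the sign of their median depended on A57: 47 members were positive with all libraries (median 0.09), 36 with RLE size factors and 11 without A57 (median -0.10). A57 held the highest summed level of that list, 22350 CPM against 14910 to 17920 CPM in the other libraries. Of 214 odorant receptor genes 15 passed the filter on low counts without A57, so most of the family was not tested in these abdomens. Of these 15, only *Or133* was called higher (1.09 ± 0.35, adjusted p = 0.0365), where 15.3% of all genes tested were.

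**Figure D5:**
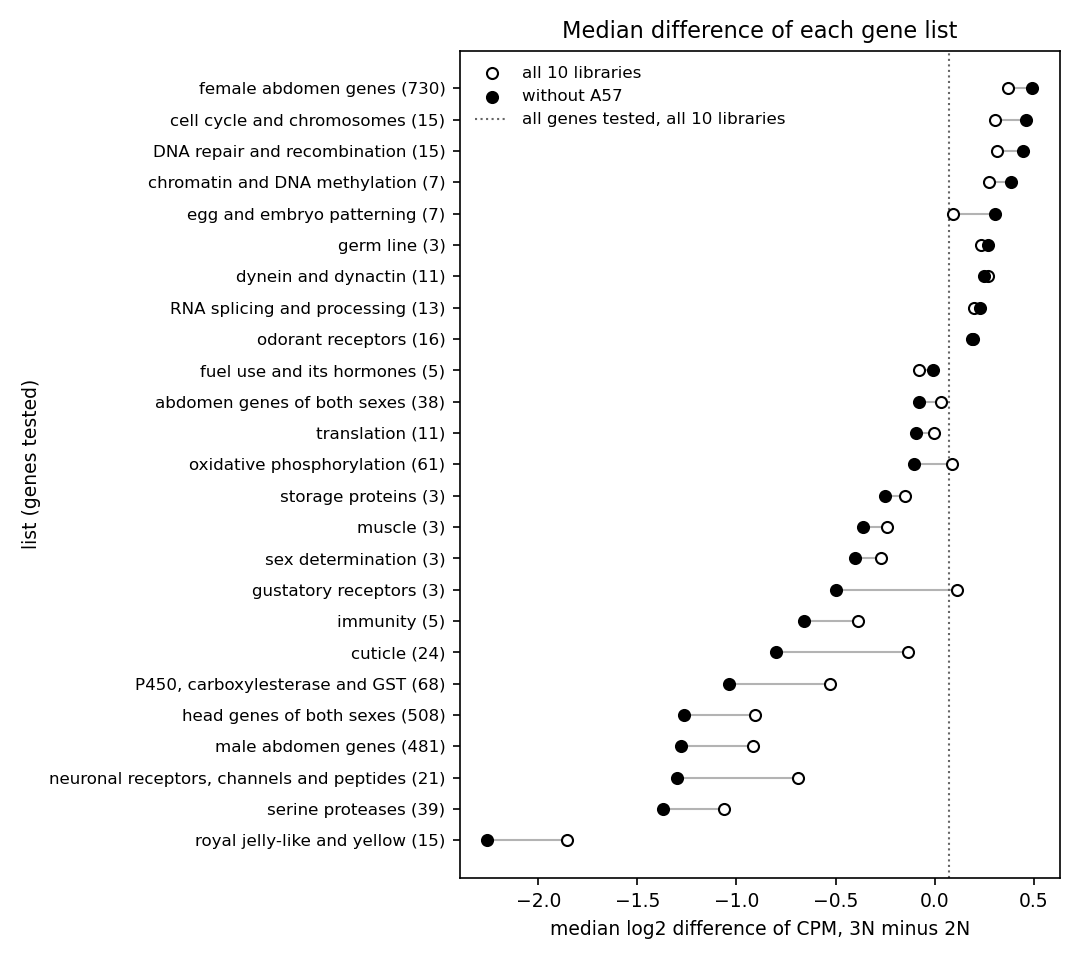
Median log2 difference of CPM (3N minus 2N, x axis) of each gene list (y axis, genes tested with all libraries in brackets) with all libraries (open) and without A57 (filled); the dotted line is the median of all genes tested, 0.07. Female abdomen, cell cycle and repair genes lie to the right, and royal jelly-like and yellow genes lie farthest to the left, at -1.86 and -2.26.

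Of the sex determination genes, *Tra*, the *transformer* gene itself, stood at 106, 89.2, 113, 127 and 130 CPM at 2N and at 93.7, 125, 90.3, 73.3 and 84.6 CPM at 3N. The groups overlapped through A57 and A67. The log2 difference was -0.27 ± 0.14 (adjusted p = 0.227) with all libraries and -0.40 ± 0.13 without A57 (adjusted p = 0.0364, range over the alternatives 0.0115 to 0.419). *Dsx*, the sex-specifically spliced factor that *Tra* controls, had 113 to 231 CPM at 2N and 63.3 to 299 CPM at 3N, with both the lowest and the highest value, that of A57, among the 3N libraries. Its difference was -0.35 ± 0.43 (adjusted p = 0.592), and -0.74 ± 0.43 without A57 (adjusted p = 0.193). *Fru* was not called (-0.15 ± 0.13, adjusted p = 0.452). Splice forms were not separated in the values used.

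No chromosome as a whole differed by ploidy after adjustment. The median log2 difference of a chromosome's genes, relative to the library median, ran from -0.0243 on chromosome 3 to 0.0367 on chromosome 5 (exact permutation test, adjusted p = 0.218 and 0.0794 over 5 chromosomes). The value of chromosome 5 passed without A67 (0.0417, adjusted p = 0.0397) and was 0.00889 among genes of at least 5 CPM (adjusted p = 0.675).

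The ploidy difference of F14 was set against that of F2 in the same fit. The difference between the generations was called for 1223 genes, 627 higher (5.78%) and 596 lower (5.49%) at F14, although at F2 itself 0 genes were called (edgeR, 1635 at an unadjusted p below 0.05; DESeq2 was not run on the F2 difference). Across 10855 genes, which are not independent, the correlation of the 2 ploidy differences was -0.364, and -0.499 without A57. The number of calls was 3550 without A57, 2164 without A67, 746 without A59, 531 without A68, 348 without A56, 231 without A66 and 197 without A69. F2 libraries were not left out in turn. No batch is labelled, and what separates the generations cannot be told apart from when their libraries were made.

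Among genes with a name, *Def1-2* was lower at 3N in F14 and stood the other way in F2, with means of 3.48 CPM at 2N and 16.5 CPM at 3N (scaled over all 76 libraries). The change of its ploidy difference was -5.65 ± 1.24 (adjusted p = 0.0245). *LOC100119490*, the male abdomen gene, had 17 CPM at 2N and 110 CPM at 3N in F2, and its change was -6.75 ± 1.1 (adjusted p = 0.0156). *LOC103316656* was level in F2, with 19.9 and 19.3 CPM, close to its 18.1 CPM in F14 3N abdomens and below its 60.1 CPM in F14 2N abdomens (change -1.59 ± 0.41, adjusted p = 0.0282).

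In the other direction the chromatin gene *Rpd3* changed by 0.76 ± 0.24 (adjusted p = 0.0472), the repair gene *RPA2* by 0.71 ± 0.16 (adjusted p = 0.0245) and the cell cycle gene *Melk* by 0.66 ± 0.18 (adjusted p = 0.034). *cycB* was not called (0.86 ± 0.47, adjusted p = 0.2), nor was *oskar* (0.53 ± 0.19, adjusted p = 0.0703). By list, 2 of 15 cell cycle genes and 2 of 15 repair genes were called higher and 0 lower, and 10 of 39 serine protease genes, 11 of 68 detoxification genes and 5 of 21 neuronal genes were called lower against 1, 3 and 0 higher, where 5.78% of all genes were called higher and 5.49% lower. Without A57 the counts were 10 of 15 and 10 of 15 higher for the first 2 lists and 12 of 38, 24 of 68 and 11 of 21 lower for the others, among 18.3% higher and 14.6% lower calls over all genes. For the female abdomen, male abdomen and head lists this comparison is not given, because F2 2N abdomens chose their members.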

How the data were processed

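Per the labels' protocols, polyadenylated RNA was purified with poly-T beads and libraries were made with a kit that is not described there as stranded, so reads of overlapping antisense genes cannot be told apart. Per the submitters' processing notes, STAR 2.7.11a and RSEM 1.3.1 were used. The genome build is not given in the sources used here. The authors deposited RSEM expected counts per gene (estimated counts that share out ambiguous reads, not normalized) and TPM for 76 libraries. The deposited TPM served only to compare levels between genes.

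Expected counts were rounded and tested with edgeR 4.0.16 in R 4.3.3 (TMM scaling, filterByExpr, robust quasi-likelihood) in 1 fit of 18 female abdomen libraries in 4 groups. Genes with a Benjamini-Hochberg adjusted p below 0.05 over all genes tested were called. CPM are TMM-scaled. List definitions used a pseudocount of 0.5 CPM. Log2 differences carry edgeR's prior count of 0.125. Values of single libraries or chromosomes were tested by exact permutation. The script was tested on simulated data.

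The comparison, its members and the gene lists were chosen with earlier results of these data known. All 14621 genes matched a RefSeq symbol table (assembly Nvit_psr_1.1, used for names, chromosomes and gene order only), 829 of them with a symbol other than a LOC number. Named genes were *Tra*, *Dsx* and the germ line genes, the 6 highest and 6 lowest called genes with at least 5 CPM and no overlap, overall and among symbols, and up to 3 called members of each list by adjusted p. Where a list had no call, the 2 members with the lowest p were named. The rule was applied with all libraries and, chosen after seeing the data, without A57. Some further list members and markers were named after their values were seen. Counts of 19 tested genes equalled those of another gene in all 18 libraries, 2 of them called without A57. Alternatives were RLE scaling, no filter, DESeq2 1.42.0, no robust option, F14 libraries only, and leaving out each F14 library. RLE scaling, DESeq2 and the F14-only fit were also run with A57 left out. The ranges over the alternatives include these fits too. Some members of the lists are counted but not reported here by name.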

Additional observations from a re-analysis of the deposited data

Results flagged for a closer look

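Single libraries stood far from the rest of their group in 6 values of the 25 lists and of the depth, germ line, marker and called genes examined; chance gives such a gap in about 1 of 20 groups. The summed level of translation genes was 12900 CPM in A70 (2N) against 18500 to 20000 CPM in the other 2N libraries. The summed level of oxidative phosphorylation genes was 16500 CPM in A66 (2N) against 17600 to 17900 CPM. *LOC103316656* stood at 29.7 CPM in A67 (2N) against 66.7 to 78.7 CPM, and *Syt1* at 27.7 CPM in A67 against 45.4 to 48.8 CPM. *Or1* stood at 5.78 CPM in A69 (2N) against 0.215 to 0.545 CPM and at 7.44 CPM in A58 (3N) against 0.141 to 0.61 CPM.

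For 35 genes, those picked by the naming rule and the further genes tabulated with them, the ploidy difference of F14 departed from that of F2 in its own test (edgeR's quasi-likelihood test, adjusted p below 0.05 over all genes); the values are log2 changes of the 3N minus 2N difference, F14 minus F2. Among genes that stood lower at 3N in F14, the change was -6.75 for *LOC100119490*, -5.65 for *Def1-2*, -5.62 for *Def1-1*, -5.38 for *GluCl* and -5.33 for *LOC100116242*. It was -5.16 for both *CCE-D5* and *LOC103317638*, -4.77 for *nAChRb1*, -4.59 for *SP49*, -4.53 for *SP9*, -4.19 for *CYP9AG4*, -4.12 for *nAChRa2*, -4.13 for *Y-x1c*, -4.06 for *Mrjpl5* and -4.04 for both *SP100* and *Mrjpl8*. Smaller changes were -3.48 for *LOC100117216*, -3.20 for *Cpap3-d1*, -2.79 for *Y-h*, -2.70 for *CPR16*, -2.50 for *LOC100678174*, -1.59 for *LOC103316656*, -1.44 for *Syt1* and -0.716 for *CYP314A1*. Among genes that stood higher at 3N in F14, the change was 1.76 for *Or133*, 1.02 for *SPH42*, 0.918 for *Efhd1*, 0.767 for *Acads*, 0.762 for *Rpd3*, 0.71 for *RPA2*, 0.689 for *recQ1*, 0.661 for *Melk*, 0.58 for *Mrjpl3*, 0.547 for *Dctn4* and 0.497 for *Skp1*. With the exception of *LOC103316656* and *SP49*, at -0.10 and 0.09 in F2, the F2 difference of these genes had the opposite sign and a size of at least 0.205 on the log2 scale, and none was called in F2 itself. That is not particular to them. Of all 1223 genes called in this test, 1216 had opposite signs in the 2 generations, and 0 genes were called in F2. The test also contains the F14 difference that the naming rule used, so the signs are no separate result.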

How the results depend on the processing

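The 6 calls at F14 were 6 with RLE scaling and without the robust option, 0 without the filter on low counts, 20 (all lower) in a fit of the F14 libraries only and 613 with DESeq2 (130 higher, 483 lower). With A57 left out as well, calls were 1752 (827 higher, 925 lower) in the F14-only fit, 2483 (1347 and 1136) with RLE and 3424 (1675 and 1749) with DESeq2. Leaving out each F14 library in turn gave 0 to 2716 calls, 0 to 1648 higher and 0 to 1068 lower. The cause of these differences was not tested, beyond the place of A57 and A67 among the libraries. The change from F2 gave 454 calls (124 and 330) without the filter, 903 (365 and 538) with RLE and 2031 (813 and 1218) with DESeq2. With A57 left out it gave 3370 (1735 and 1635) with RLE and 3966 (1935 and 2031) with DESeq2. Leaving out each F14 library in turn gave 197 to 3550, with 80 to 1970 higher and 117 to 1580 lower. F2 libraries were not left out, so the dependence of this change on single F2 libraries was not tested.

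Over the symbol lists, 0 members were called with all libraries and with RLE, and 24 to 75 without A67 or A57. Over the tissue lists there were 2 such calls, 1 with lists at 16-fold, and 241 to 714 without A67 or A57. Chromosomes past the threshold numbered 0 to 1 over the left-out libraries. The difference in genes with a count was -371 with at least 10 counts (exact permutation p = 0.119), and -657 to -528 over the left-out libraries. That in total counts was -1.44 to -0.0883 M. The 6 genes called with all libraries kept their sign in every alternative. The alternatives share most or all of the F14 libraries, so this is no separate result. Of the named genes, DESeq2 added 19 calls and ended 0, and the F14-only fit added 3 and ended 2. No paired analysis was possible because the libraries carry no replicate number that both ploidies share.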
